A study of Mus musculus with 2 samples.

Results

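The dividing T cells of S-100-treated mice are described here, by genotype. They were chosen by their measured UMIs: they are the 872 cell barcodes, of 49230 deposited and 27478 that passed the filters on cells, that carried T-cell receptor RNA together with RNA of the division genes Mki67 and Top2a. A barcode passed the filters with at least 200 genes detected, at most 20% mitochondrial UMIs and at most 10% haemoglobin UMIs (a UMI, or unique molecular identifier, stands for 1 captured RNA molecule). A member then had at least 2 UMIs of Cd3d, Cd3e, Cd3g, Trac, Trbc1 and Trbc2 together, at least 2 UMIs of Mki67 and Top2a together, and 0 UMIs of Foxp3, Ncr1, Klre1, Cd79a and Csf1r. The last 5 genes mark regulatory T cells, natural killer (NK) cells, B cells and macrophages. Every value of these gate genes, and of genes that follow them through the cell cycle, therefore describes how the members were chosen. The wild-type library held 796 members and the knockout library 76.

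The series measured RNA in single cells with 10x Genomics 3' chemistry in 1 library per genotype. The wild-type mice (WT) carried Bicd2 fl/fl, loxP-flanked alleles of the dynein adaptor gene Bicd2, without Cre. The knockout mice (KO) carried the same alleles with Alb-Cre, a Cre recombinase driven by the albumin promoter, which is active in hepatocytes, so that the T cells described here were not the cells targeted. Mice of both genotypes received 2.5 mg of S-100, a liver antigen fraction in complete Freund's adjuvant, by intraperitoneal injection once a week for 3 weeks, a model of autoimmune hepatitis. The series text names hepatic immune cells, taken from the Percoll interphase after red-cell lysis and live sorting, and pooled, whereas the sample labels name peritoneal immune cells and a treatment given as HFD; the files do not settle which holds. The number of mice pooled and their ages were not given in the sources used here. With 1 library per genotype a difference has no replicate check and genotype and library cannot be told apart. The 95% intervals given below cover counting error only. They are exact binomial for shares and exact conditional binomial for ratios of summed UMIs. For ratios of shares and for differences between log2 ratios they are log-normal. Where a share was 0, the limit given is 3 counts over the number of cells, which lies below the exact binomial limit.

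T cells that recognise antigen leave the resting state and divide, which turns a rare clone into many effector cells. In a dividing cell, E2F factors first switch on the genes that copy DNA, among them those of the Mcm helicase, Pcna and the histones. The genes of chromosome condensation, the spindle and cytokinesis follow later and are read by the MuvB complex with B-Myb and FoxM1. In the liver, recently divided effector T cells are a source of interferon-gamma, which induces guanylate-binding proteins, immunity-related GTPases and antigen presentation in the cells around them and in the T cells themselves.

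The promoters of the gate genes and of 3 further division genes are shown because many mitosis genes share letters there. The sequences are from RefSeq on GRCm38.p6, read 5′ to 3′ on the gene's strand, from 250 bases before to 50 after the annotated start; the libraries' build was mm39, so these coordinates are not of the files' build. Capitals mark TTTGAA (the core of the cell-cycle homology region, CHR), CCAAT (the NF-Y box) and TTCCCGC (1 form of the E2F site), searched on both strands. The Mki67 promoter lies at chr7:135716330-135716629 on the minus strand, that of Top2a, the topoisomerase that untangles sister DNA, at chr11:99024140-99024439 on the minus strand, that of Ccnb1, the mitotic cyclin B1, at chr13:100786437-100786736 on the minus strand, that of Plk1, a mitotic kinase, at chr7:122159185-122159484 on the plus strand, and that of Pclaf, a Pcna partner at replication forks, at chr9:65890073-65890372 on the plus strand.
Mki67: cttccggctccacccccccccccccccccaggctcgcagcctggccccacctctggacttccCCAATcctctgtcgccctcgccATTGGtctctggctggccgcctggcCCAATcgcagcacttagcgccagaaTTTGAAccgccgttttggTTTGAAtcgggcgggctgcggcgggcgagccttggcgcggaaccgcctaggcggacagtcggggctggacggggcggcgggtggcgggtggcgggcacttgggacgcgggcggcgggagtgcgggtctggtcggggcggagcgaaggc
Top2a: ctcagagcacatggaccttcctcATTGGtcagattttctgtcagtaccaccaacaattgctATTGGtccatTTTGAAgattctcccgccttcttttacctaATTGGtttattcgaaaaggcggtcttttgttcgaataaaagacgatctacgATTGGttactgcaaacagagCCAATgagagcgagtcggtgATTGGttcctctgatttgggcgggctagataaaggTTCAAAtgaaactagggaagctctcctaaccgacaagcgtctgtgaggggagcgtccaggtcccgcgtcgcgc
Ccnb1: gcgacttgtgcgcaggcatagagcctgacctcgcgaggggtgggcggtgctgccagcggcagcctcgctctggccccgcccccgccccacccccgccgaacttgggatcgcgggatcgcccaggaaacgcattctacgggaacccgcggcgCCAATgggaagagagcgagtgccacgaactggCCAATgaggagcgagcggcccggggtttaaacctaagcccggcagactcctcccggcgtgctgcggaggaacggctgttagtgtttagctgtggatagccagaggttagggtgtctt
Plk1: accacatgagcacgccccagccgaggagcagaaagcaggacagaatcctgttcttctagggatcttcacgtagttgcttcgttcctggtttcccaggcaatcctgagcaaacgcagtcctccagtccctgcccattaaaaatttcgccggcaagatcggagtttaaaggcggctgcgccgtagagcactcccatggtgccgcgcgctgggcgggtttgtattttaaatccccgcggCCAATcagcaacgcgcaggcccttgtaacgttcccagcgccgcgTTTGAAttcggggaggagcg
Pclaf: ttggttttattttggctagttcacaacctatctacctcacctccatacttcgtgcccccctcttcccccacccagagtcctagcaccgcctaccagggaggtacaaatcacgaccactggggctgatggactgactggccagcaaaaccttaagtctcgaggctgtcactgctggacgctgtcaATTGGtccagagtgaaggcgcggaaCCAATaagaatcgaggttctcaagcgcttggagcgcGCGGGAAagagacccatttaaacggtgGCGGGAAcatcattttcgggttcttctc
Mki67 and Top2a held 2 CHR cores each, with 3 and 6 CCAAT boxes, and Plk1 held 1 of each. Ccnb1 held 2 CCAAT boxes and no CHR core in this window, and Pclaf held 2 CCAAT boxes and 2 TTCCCGC matches. Of the 56 mitosis genes listed here, 48 were matched to a promoter, and 72.9% of those held TTTGAA, against 18.1% of all 27025 promoters of this length. CCAAT stood in 70.8% of the mitosis promoters against 37.9% of all, and both motifs together in 60.4% against 7.12%. TTCCCGC stood in 1 of the 48 mitosis promoters (2.08%) and in 4.66% of all. The same comparison is void for the replication genes, of which only 30 of 40 were matched. A match is a description of these letters and does not show that a factor binds.

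The deposited matrices summed to 81159013 UMIs over 22197 barcodes in WT and to 63869430 over 27033 in KO. The haemoglobin limit took the passing barcodes from 20167 to 16666 in WT and from 17675 to 10812 in KO. The libraries shared 177 barcode sequences, of which 53 passed in both and none belonged to a member. Members had a median of 5110 UMIs in WT and 4714.5 in KO, and a median of 2385.5 and 2269.5 genes. Summed over members the depth was 5134598 UMIs in WT and 489860 in KO, so that 1 UMI in KO weighs about as much as 10 in WT, and the deepest KO member alone gave 5.82% of its library's sum. Levels are given as summed UMIs per 1000000 summed UMIs (CPM), and log2 ratios are log2 of KO over WT after adding 1 CPM to each, which understates the difference of low genes. In such sums, fewer members with a transcript and fewer transcripts per member cannot be told apart.

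The label was checked against 15 T-cell genes, all of which stood above 50 CPM in both libraries. For 6 of them (Cd3d, Cd3e, Cd3g, Trac, Trbc1 and Trbc2) the rule itself required RNA, so the check rests on genes outside the rule, among them Cd247, Lck, Zap70, Cd5, Cd28, Thy1, Bcl11b and Lat, of which Zap70, a kinase of receptor signalling, was the lowest at 128 CPM in WT and 114 CPM in KO. Of 4 genes of dividing thymocytes, Rag1, Rag2 and Ptcra were at 0 UMIs in both libraries, and Dntt gave 10 UMIs in 4 WT members and 0 in KO. The gate was passed with exactly 2 division UMIs by 212 WT and 16 KO members, while 799 WT and 86 KO T cells stood just outside with 1. On the receptor side, 92 and 6 members had exactly 2 receptor UMIs, and 182 and 14 barcodes with 1 receptor UMI met the rest of the rule. Members held a median of 5 division UMIs in WT and 9 in KO.

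Not every member carried T-cell RNA alone. UMIs of other cell types' defining genes reached a threshold set after seeing the data in 134 WT members (16.8%) and 6 KO members (7.89%), which held 21.1% and 22.5% of the members' UMIs. Neutrophil granule genes (at least 10 UMIs of Camp, Ngp and Ltf) marked 84 WT and 1 KO members, early myeloid genes 40 and 2, dendritic-cell genes 23 and 4, and macrophage genes 16 and 4. The 11 neutrophil markers summed to 31104 CPM in WT and 13218 CPM in KO over all members, and to 4425 and 3640.0 CPM without those members; 11 and 10 of them were detected. The 7 dendritic markers summed to 47.7 and 153 CPM, with 7 and 5 detected, and to 7.897 and 7.91 CPM without them. Results are given over all members; most list medians, and the log2 ratios of many genes named as past 2-fold, are given also for the 662 WT and 70 KO members below those thresholds, written as without other types' RNA.

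Dividing cells made up a smaller share of the T cells in the KO library. T cells here are the barcodes that met every part of the rule except the one on Mki67 and Top2a. Members were 796 of 5020 WT cells (15.9%, 14.9% to 16.9%) and 76 of 3307 KO cells (2.298%, 1.81% to 2.87%), so that the KO share was lower by 6.9-fold (interval 5.48 to 8.69). The T cells were shallower in KO, with a median of 2732 UMIs in WT and 2065 in KO and upper quartiles of 4522 and 2939. Non-dividing T cells, with 0 UMIs of both genes, had a median of 2370 UMIs in WT and 2036 in KO. With every cell thinned to 1000 UMIs, and the 500 WT and 309 KO T cells of lower depth dropped, the gate was met by 325 of 4109 WT cells (7.91%, 7.102% to 8.78%) and 36 of 2664 KO cells (1.35%, 0.948% to 1.87%). Without the members carrying other types' RNA the log2 ratio of the share was -2.74, and without doublet-marked barcodes -2.75, against -2.79 over all T cells.

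The same order held in each of 5 ranges of UMIs per cell, and the distance between the libraries narrowed with depth. From 500 to 999 UMIs the share was 5.2% of 500 WT cells and 0 of 309 KO cells, which allows up to 0.971%. From 1000 to 1999 UMIs it was 7.92% of 1212 WT cells and 0.478% of 1254 KO cells. From 2000 to 3999 UMIs it was 11.1% of 1730 WT cells and 1.79% of 1455 KO cells. In these 3 ranges the WT share was several times the KO share. From 4000 to 7999 UMIs it was 20.5% of 1245 WT cells and 10.9% of 256 KO cells. At 8000 UMIs or more it was 68.2% of 333 WT cells (62.9% to 73.1%) and 48.5% of 33 KO cells (30.8% to 66.5%), where the intervals overlap. The median haemoglobin share of these T cells was lower in deeper cells, going from 1.58% to 0.349% in WT and from 3.55% to 0.669% in KO.

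The difference in share depended on the haemoglobin limit. With the limit at 1% in place of 10%, dividing cells were 663 of 3750 WT T cells (17.7%) and 36 of 210 KO T cells (17.1%), a log2 ratio of -0.04 (interval -0.48 to 0.40). That limit kept 210 of 3307 KO T cells and 3750 of 5020 WT T cells, and those kept were deeper, with medians of 3450 UMIs in WT and 4169.5 in KO against 2732 and 2065 over all T cells. Limits of 2% and 5%, added after seeing this, gave log2 ratios of -2.39 and -2.797, against -2.79 at 10%. Members carried a median of 27 haemoglobin UMIs in WT and 58 in KO, and non-dividing T cells 17 and 36. The part of red-cell RNA in the difference in share was not tested.

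**Figure D1:**
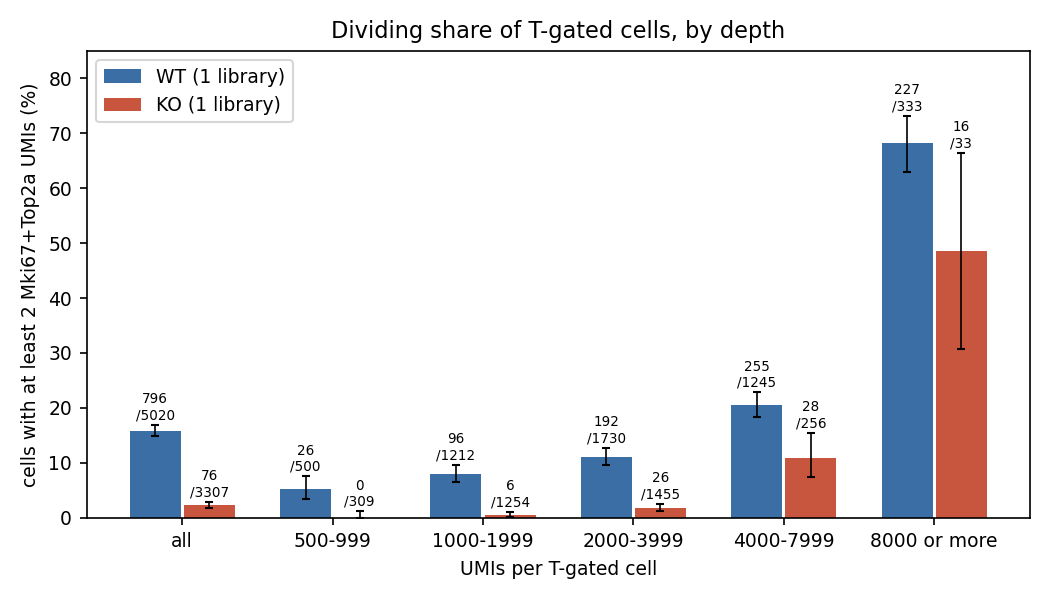
Bars give the percentage of T cells that met the Mki67 and Top2a rule (vertical axis) over all T cells and by range of UMIs per cell (horizontal axis) in the WT and KO libraries, with 95% exact binomial intervals as lines and the counts above them. The WT bar stood above the KO bar in all 5 ranges, from 5.2% against 0% in the shallowest to 68.2% against 48.5% in the deepest.

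The smaller share in KO was found in each class of T cell that the coreceptors define. Among T cells with a Cd4 UMI and none of Cd8a or Cd8b1, members were 432 of 2338 WT cells (18.5%, 16.9% to 20.1%) and 25 of 558 KO cells (4.48%, 2.92% to 6.54%). Among those with a Cd8 UMI and no Cd4, they were 76 of 454 WT cells (16.7%, 13.4% to 20.5%) and 12 of 484 KO cells (2.48%, 1.29% to 4.29%). Among those with neither, which can lack the protein or only the captured transcript, they were 256 of 2108 WT cells (12.1%, 10.8% to 13.6%) and 38 of 2243 KO cells (1.69%, 1.202% to 2.32%). T cells with a UMI of Zbtb16, the PLZF factor of innate-like T cells, gave the lowest WT share of these 4 classes, in which members were 22 of 366 WT cells (6.01%, 3.805% to 8.96%) and 23 of 1295 KO cells (1.78%, 1.13% to 2.65%). In cells outside the rule, the same division genes were found in 38 of 165 WT cells (23.03%, 16.8% to 30.2%) and 3 of 29 KO cells (10.3%, 2.19% to 27.4%) among Foxp3-positive T cells, in 86 of 673 WT cells (12.8%, 10.3% to 15.5%) and 10 of 726 KO cells (1.38%, 0.662% to 2.52%) among NK cells and in 12 of 388 WT cells (3.09%, 1.61% to 5.34%) and 5 of 803 KO cells (0.623%, 0.202% to 1.45%) among B cells. Each of these 7 classes had the lower share in KO, with intervals that overlap among the Foxp3-positive cells. At 1000 UMIs per cell the shares in WT and KO were 6.31% and 0.446% in the Cd4 class, 10.1% and 1.26% in the Cd8 class, 8.33% and 1.46% in the class with neither, and 1.105% and 0.846% among Zbtb16-positive cells. In KO the Cd4 share rests on 1 of 224 cells (0.0113% to 2.46%) and the Cd8 share on 3 of 239 cells (0.26% to 3.62%). The Zbtb16 pair rests on 2 WT and 6 KO cells, and its intervals overlap.

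Among members, each listed replication and mitosis gene stood within 2-fold between the 2 libraries. The same rule on Mki67 and Top2a chose the members in both, so this describes the choice and is no separate result. Of the 10648 genes measured in members (at least 20 UMIs over both libraries), 6.91% were at least 2-fold lower in KO and 4.52% at least 2-fold higher, with a median log2 ratio of 0.00. These shares are the background for each count of listed genes past 2-fold in members given below. All 40 replication genes and all 56 mitosis genes listed were measured, and none passed 2-fold in either direction. The replication genes summed to 4487 CPM in WT and 4638 CPM in KO, with a median log2 ratio of 0.09, and the mitosis genes to 8977 CPM in WT and 9725 CPM in KO, with a median of 0.11. Without the members that carried other cell types' RNA these medians were 0.21 and 0.15. In non-dividing T cells, where the rule holds both gate genes at 0, the mitosis genes had a median of -1.19 and the replication genes one of -0.30. As a description of the gate, the median log2 ratio of members over non-dividing cells was 2.37 in WT and 2.67 in KO for replication, and 4.17 and 5.68 for mitosis. Members over non-dividing cells, 38 replication and 55 mitosis genes were at least 2-fold higher in WT, where 7.18% of all genes were and 3.1% were lower. In KO 39 and 54 were, beside 14.7% of all genes higher and 10.3% lower.

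In the replication group, Pclaf stood at 643 CPM in WT and 606 CPM in KO, and at 11.8 and 1.26 CPM in non-dividing T cells. Pcna, the sliding clamp of DNA polymerase, stood at 387 CPM in WT and 365 CPM in KO. Mcm5, a subunit of the replicative helicase, stood at 95.8 CPM in WT and 145 CPM in KO with a log2 ratio of 0.59, inside the 2-fold range. In none of these 3 did the libraries lie 2-fold apart. Of the nucleotide synthesis genes, 23 of 24 were measured and 1 passed 2-fold: Cad, which starts pyrimidine synthesis, at 23.4 CPM in WT and 8.17 CPM in KO, 2.86-fold lower (interval 1.09 to 10.7), from 4 KO members with a UMI. The list's median log2 ratio was -0.07, and without other types' RNA it was 0.06, with Cad at -1.08. The replication-dependent histones, which package new DNA and whose transcripts mostly lack the poly(A) tail that the assay captures, were measured in 48 of 60 cases, with 3 at least 2-fold lower, 1 higher and a median of 0.44 (0.50 without other types' RNA); among members with Cd8 alone (12 in KO) that median was -0.55. The lower genes, H4c16, H4c17 and H4c18, had at most 1 KO UMI, and histone genes of 1 class are so alike that reads may be split between them. The histone counts past 2-fold lie near the shares over all measured genes, 6.91% lower and 4.52% higher.

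Among the mitosis genes, Cenpe, a kinetochore motor, had the highest ratio and stood at 243 CPM in WT and 369 CPM in KO (log2 0.60). Kif18b, a motor that shortens spindle microtubules, had the lowest, at 43.4 CPM in WT and 24.5 CPM in KO (log2 -0.80). Between these ends lay Ube2c, which passes ubiquitin to mitotic substrates, at 466 CPM in WT and 392 CPM in KO. Cenpf, another kinetochore protein, stood at 332 CPM in WT and 433 CPM in KO, and Plk1 at 89.6 CPM in WT and 114 CPM in KO. Hmmr, a spindle protein named among the marker genes of these cells, stood at 151 CPM in WT and 174 CPM in KO. Along the whole mitosis list the libraries differed by less than 2-fold, among members that the same 2 division genes had selected in each. The ratio of replication to mitosis UMIs over all members was 0.4998 in WT and 0.477 in KO. More mitosis than replication UMIs were held by 526 WT members (66.1%, 62.7% to 69.4%) and 47 KO members (61.8%, 49.98% to 72.8%), with overlapping intervals.

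**Figure D2:**
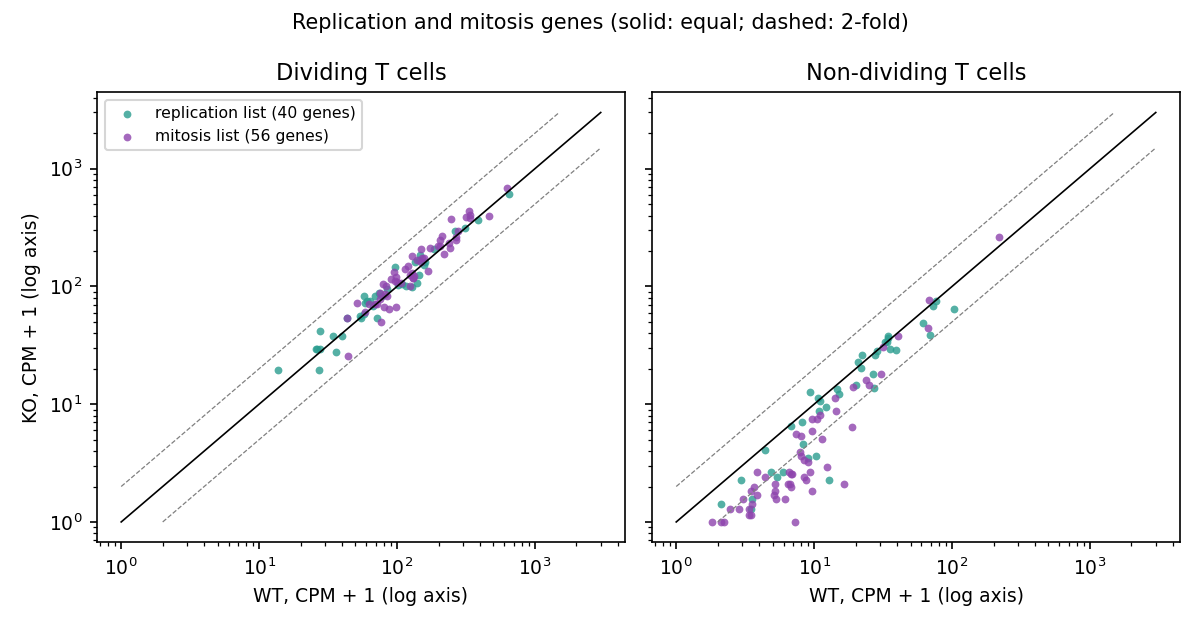
Each point is a replication or mitosis gene, by its level in WT (horizontal axis, CPM plus 1, log scale) and in KO (vertical axis, CPM plus 1, log scale), for dividing cells on the left and non-dividing T cells on the right; lines mark equal levels and 2-fold. All points of the dividing cells lie inside the 2-fold lines, from Kif18b (log2 -0.80) to Gins3 (log2 0.61), while the mitosis genes of non-dividing cells have a median of -1.19.

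The 35 listed cyclins, kinases and inhibitors that steer the cycle were all measured and had a median log2 ratio of 0.10, with 2 at least 2-fold lower and 1 higher in KO. These counts lie near the shares over all measured genes, 6.91% lower and 4.52% higher. Cdkn1a, the inhibitor p21 that p53 induces, stood at 48.7 CPM in WT and 16.3 CPM in KO, 2.98-fold lower (interval 1.49 to 6.98). Cdk6, a kinase of the entry into the cycle, stood at 319.8 CPM in WT and 125 CPM in KO, 2.57-fold lower (interval 1.99 to 3.37). Ccnd1, a D-type cyclin that lymphocytes use little, stood at 13.4 CPM in WT and 44.9 CPM in KO, 3.34-fold higher (interval 1.97 to 5.47), and at a log2 ratio of 1.08 without the members carrying other types' RNA; 59.1% of its KO UMIs came from 1 cell. Ccne2, the cyclin of the step into DNA synthesis, stayed just inside 2-fold at 30.6 CPM in WT and 61.2 CPM in KO (log2 0.98). Without other types' RNA the log2 ratios of Cdkn1a and Cdk6 were -1.95 and -1.36, and the list's median was 0.17. No mitotic cyclin passed 2-fold.

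The make-up of the dividing cells differed between the libraries. A Cd4 UMI without Cd8 was held by 432 of 796 WT cells (54.3%, 50.7% to 57.8%) and 25 of 76 KO cells (32.9%, 22.5% to 44.6%), and a Cd8 UMI without Cd4 by 76 of 796 WT cells (9.55%, 7.596% to 11.8%) and 12 of 76 KO cells (15.8%, 8.43% to 25.96%). Neither was detected in 256 of 796 WT cells (32.2%, 28.9% to 35.5%) and 38 of 76 KO cells (50%, 38.3% to 61.7%). At the depth as deposited, cells with Cd4 alone were thus the largest class in WT and cells with neither the largest in KO, while the intervals of the Cd8 class overlap. At 1000 UMIs per cell, cells with neither were the largest class in both libraries, at 70.1% and 80.3%, with Cd4 alone at 22.9% and 9.21% and Cd8 alone at 6.75% and 10.5%. In B cells, which should lack Cd4, the first pattern was found in 2.58% of WT and 0.125% of KO cells, at median depths of 2565 and 1929 UMIs. Among non-dividing T cells the Cd4 class was 42.3% in WT and 16.4% in KO, so the same order was present there. Without the members carrying other types' RNA the Cd4 class was 386 of 662 WT cells (58.3%, 54.4% to 62.1%) and 22 of 70 KO cells (31.4%, 20.9% to 43.6%). Both coreceptors were found in 4.02% and 1.32% of members. Trdc, the delta receptor chain, was found in 21 of 796 WT cells (2.64%, 1.64% to 4.005%) and in 0 of 76 KO cells, which allows a share of up to 3.95%. In B cells, which lack this chain, a Trdc UMI was found in 5 of 388 WT cells (1.29%, 0.4197% to 2.98%) and 3 of 803 KO cells (0.374%, 0.0771% to 1.09%), and in WT the interval overlaps that of the members, so the member share cannot be told from background. The gamma receptor chain genes Trgc1, Trgc2 and Trgc4 were higher in KO members. Their KO to WT ratios were 1.41 (interval 0.617 to 2.84), 1.63 (0.919 to 2.74) and 4.06 (1.898 to 8.13). Only the interval of Trgc4 leaves out equality, and Trgc4 was found in 2.76% of WT and 11.8% of KO members.

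Zbtb16, the factor of innate-like T cells such as invariant NKT cells, was detected in 22 of 796 WT cells (2.76%, 1.74% to 4.15%) and 23 of 76 KO cells (30.3%, 20.2% to 41.9%). The share was 10.9-fold higher in KO (interval 6.41 to 18.7), against 1.03% and 1.37% of B cells. Non-dividing T cells had the same order, at 8.93% and 39.2%. At 1000 UMIs per cell the shares in members were 0.779% and 18.4%, and without the members carrying other types' RNA they were 2.57% and 32.9%. So 22 dividing Zbtb16-positive cells were found in WT and 23 in KO. Cxcr6, a receptor of liver-resident T cells, was found in 64.2% and 53.9% of members, and Tbx21, the T-bet factor of type 1 responses, in 41.8% and 40.8%, with overlapping intervals for both. In B cells these shares were 2.32% and 0.747% for Cxcr6 and 4.897% and 1.74% for Tbx21.

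**Figure D3:**
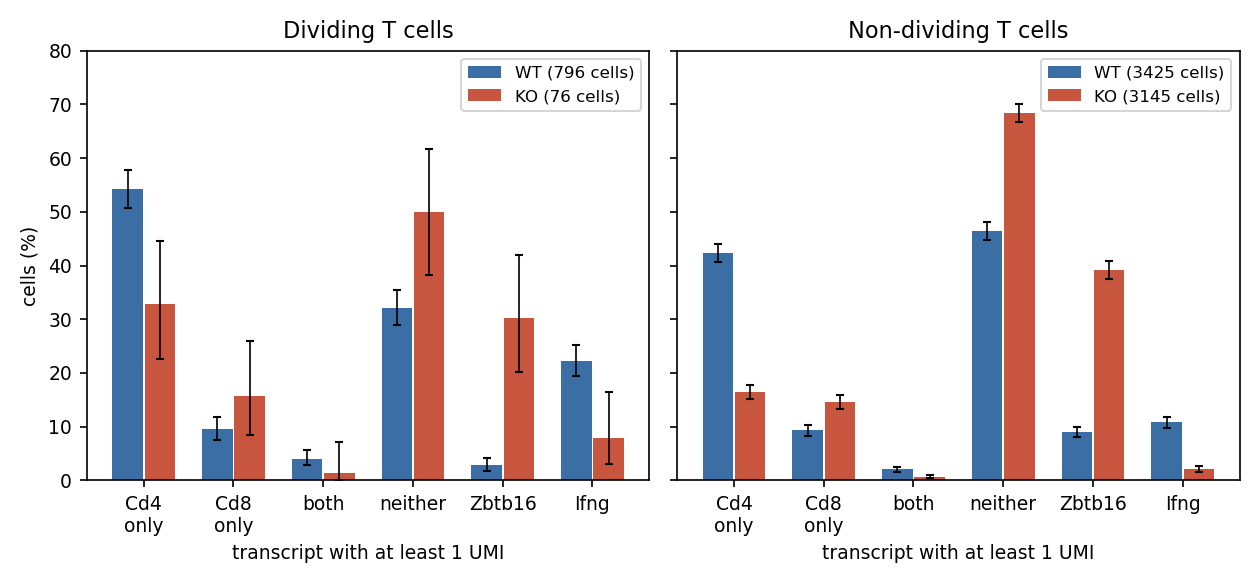
Bars give the percentage of cells with each coreceptor pattern, or with at least 1 UMI of Zbtb16 or Ifng, for dividing T cells on the left and non-dividing T cells on the right, in WT and KO, with 95% exact binomial intervals as lines. Among dividing cells Cd4 alone was at 54.3% in WT and 32.9% in KO, and Zbtb16 at 2.76% and 30.3%.

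Several effector cytokines had less RNA in the KO members. Of 18 T-cell cytokines listed, 10 were measured, of which 4 were at least 2-fold lower in KO and 2 higher, with a median log2 ratio of -0.75 (-0.76 with genes at 0 UMIs set to their bound). Of all measured genes 6.91% were at least 2-fold lower and 4.52% higher. Ifng, interferon-gamma, gave 383 UMIs in WT and 7 in KO, which is 74.6 CPM in WT and 14.3 CPM in KO, 5.22-fold lower (interval 2.51 to 13.1). An Ifng UMI was found in 177 of 796 WT cells (22.2%, 19.4% to 25.3%) and 6 of 76 KO cells (7.89%, 2.95% to 16.4%), against 1.03% and 0% of B cells, and in 10.8% and 2.099% of non-dividing T cells. At 1000 UMIs per cell the member shares were 5.71% and 0 of 76 cells, which allows up to 3.95%. Ifng RNA was thus lower in KO both among dividing and among non-dividing T cells. Its log2 ratio was -2.31 over all members, -2.09 without those carrying other types' RNA and 0.93 among those with Cd8 alone, 12 of them in KO.

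Csf1, the growth factor of macrophages, stood at 81.02 CPM in WT and 10.2 CPM in KO, 7.94-fold lower (interval 3.37 to 24.6). Its log2 ratio was -2.87 in members and -4.95 in non-dividing T cells. Tnf, the inflammatory cytokine, stood at 29.99 CPM in WT and 6.12 CPM in KO, a KO to WT ratio of 0.204 (interval 0.0417 to 0.608). Il21, the cytokine by which helper T cells drive B cells, gave 69 UMIs in WT and 0 in KO, at least 2.19-fold lower when KO is set to 3 counts over the group. The other 2 cytokines past the limit were higher in KO. Il4, the type 2 cytokine that innate-like T cells release early, gave 8 UMIs in WT and 16 in KO, 1.56 CPM in WT and 32.7 CPM in KO, 20.96-fold higher (interval 8.47 to 56.6), from 8 WT and 13 KO members. Xcl1, a chemokine that attracts cross-presenting dendritic cells, stood at 34.7 CPM in WT and 91.9 CPM in KO, 2.65-fold higher (interval 1.87 to 3.69). Without other types' RNA the list's median was -0.66, and the log2 ratios of Csf1, Tnf, Il4 and Xcl1 were -2.98, -2.39, 3.89 and 1.73.

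Genes that interferon-gamma induces were lower as a group in KO members. All 23 listed were measured, and 22 had a log2 ratio below 0. At least 2-fold lower were 5 and higher 1, where 6.91% of all 10648 measured genes were lower and 4.52% higher. The list's median was -0.74, and -0.65 without the members carrying other types' RNA, against -0.002 over all measured genes. The list was chosen with results of these libraries known, so its direction is not independent evidence. Gbp5, a guanylate-binding protein, stood at 42.8 CPM in WT and 8.17 CPM in KO, 5.25-fold lower (interval 2.02 to 19.4). Iigp1, an immunity-related GTPase, stood at 67.2 CPM in WT and 18.4 CPM in KO, 3.66-fold lower (interval 1.904 to 8.07), and had a log2 ratio of 0.53 among members with Cd8 alone. Gbp2 stood at 93.3 CPM in WT and 38.8 CPM in KO, 2.41-fold lower (interval 1.52 to 4.03). By cell, Gbp2 was found in 35.6% of WT and 22.4% of KO members, 1.59-fold lower (interval 1.03 to 2.44). At equal depth these shares were 8.96% and 5.26%, and the interval of their ratio (0.639 to 4.54) holds equality. In B cells at the depth as deposited, Gbp2 was found in 20.6% and 3.99%, so its lower level in KO was not particular to T cells. The part of free RNA in it was not tested. Gbp5, Iigp1 and Gbp2 each act against intracellular microbes, and without other types' RNA their log2 ratios were -2.46, -1.43 and -1.295. Irf1, an early factor of the interferon response, stood at 189 CPM in WT and 116 CPM in KO (log2 -0.69) and did not pass 2-fold. Cxcl9, a chemokine for activated T cells, gave 155 UMIs in WT and 0 in KO, at least 4.93-fold lower, but 49.03% of the WT UMIs came from 1 cell. Ciita, the master regulator of MHC class II, went the other way at 21.8 CPM in WT and 69.4 CPM in KO (log2 1.63), and at a log2 of -0.46 without the members carrying other types' RNA. In non-dividing T cells the list's median was -0.82, where 7.31% of 10543 genes were at least 2-fold lower and 1.77% higher.

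MHC class I genes were lower by smaller factors. All 19 listed were measured and none passed 2-fold. A log2 ratio below 0 was found in 18 of them. The median was -0.32 (-0.23 without other types' RNA), against -0.002 over all measured genes. H2-K1, a classical class I heavy chain, stood at 2734 CPM in WT and 1762 CPM in KO (log2 -0.63), and B2m, the light chain that all class I molecules share, at 2577 CPM in WT and 1805 CPM in KO (log2 -0.51). Of 25 genes listed that type I interferon induces, 20 were measured, with 2 at least 2-fold lower and 1 higher and a median of 0.21 (0.15 without other types' RNA). The one past 2-fold upward was Ifi27l2a, an interferon-induced mitochondrial protein, at 279 CPM in WT and 678 CPM in KO, 2.43-fold higher (interval 2.15 to 2.73). The lower genes were Mx1, an antiviral GTPase, at 20.4 CPM in WT and 8.17 CPM in KO, and Cmpk2, a nucleotide kinase induced by interferon, with 2 UMIs in KO. Without other types' RNA the log2 ratios of Ifi27l2a, Mx1 and Cmpk2 were 1.27, -1.93 and -0.33.

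**Figure D4:**
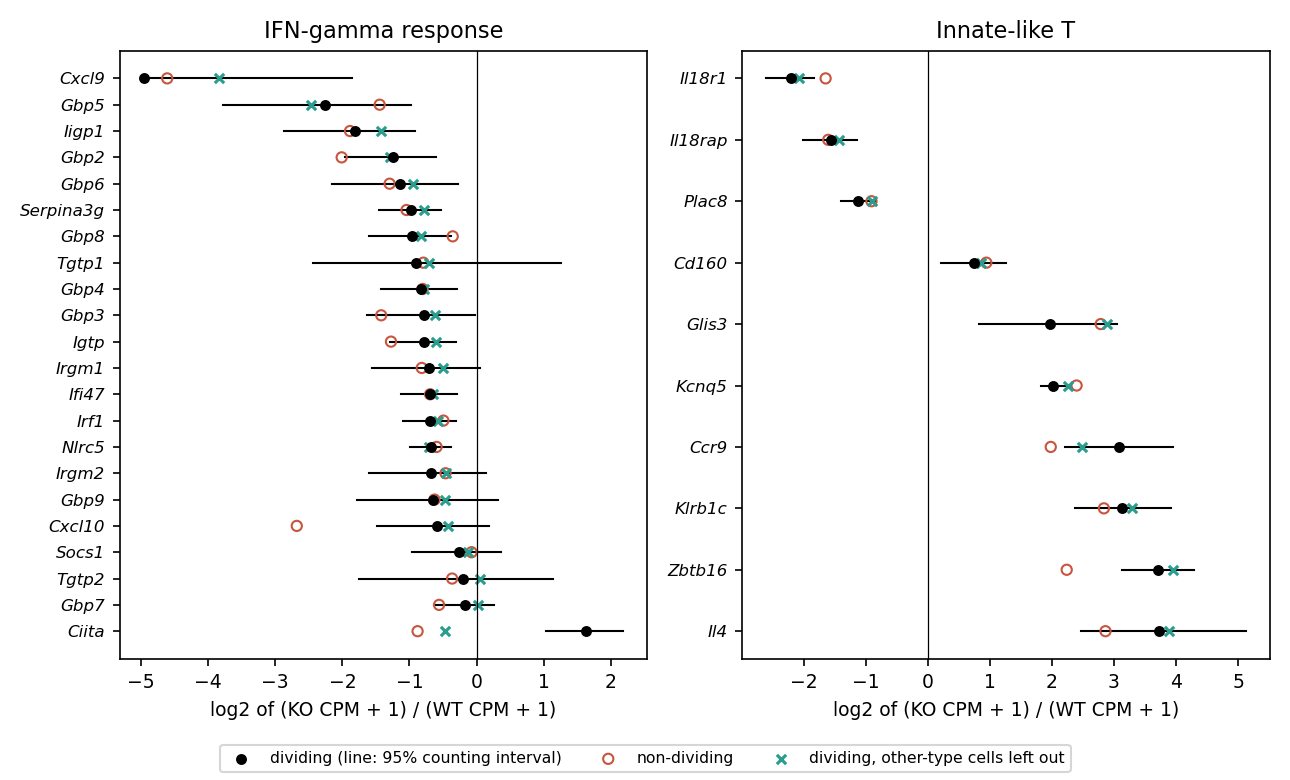
Log2 ratio of KO over WT (horizontal axis) of 22 of the 23 interferon-gamma response genes on the left and each innate-like T-cell gene on the right, as filled points with 95% counting intervals for dividing cells, crosses for dividing cells without those carrying other types' RNA, and open circles for non-dividing T cells. All interferon-gamma response points drawn for dividing cells but Ciita (1.63) lie below 0, and Zbtb16 and Klrb1c lie at 3.71 and 3.14.

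Receptors for cytokines and costimulatory ligands had medians near that of all genes, with some genes far from it. All 23 listed cytokine receptors and their signalling genes were measured; 2 were at least 2-fold lower and 1 higher, with a median of -0.24 (-0.18 without other types' RNA). The lower genes were the 2 chains of the interleukin-18 receptor, which makes effector T cells release interferon-gamma without antigen. Il18r1 stood at 538 CPM in WT and 116 CPM in KO, 4.63-fold lower (interval 3.56 to 6.12), and Il18rap at 278 CPM in WT and 93.9 CPM in KO, 2.96-fold lower (interval 2.21 to 4.07). Without the members carrying other types' RNA their log2 ratios were -2.07 and -1.43. The higher gene, Ifngr2, a chain of the interferon-gamma receptor, stood at 10.3 CPM in WT and 28.6 CPM in KO, with a log2 ratio of 0.42 without those members. Of the 15 costimulatory genes, all measured, 4 were lower and 1 higher past 2-fold, beside 6.91% and 4.52% of all measured genes. Tnfsf8, the CD30 ligand, stood at 89.6 CPM in WT and 30.6 CPM in KO, 2.93-fold lower (interval 1.76 to 5.27). Tnfrsf9, an activation-induced receptor, gave 97 UMIs in WT and 4 in KO, and 90.9% of the KO UMIs of Tnfrsf4, the receptor OX40, came from 1 cell. Slamf1 and Slamf6, which bind their own kind on neighbouring lymphocytes, went opposite ways: Slamf1 stood at 222 CPM in WT and 108 CPM in KO and Slamf6 at 39.3 CPM in WT and 125 CPM in KO. After leaving out members with other types' RNA, the log2 ratios of Tnfsf8, Tnfrsf9, Tnfrsf4, Slamf1 and Slamf6 were -1.89, -0.93, -0.82, -1.07 and 1.74, and the list's median was -0.31 against -0.18.

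The 13 inhibitory receptors and ligands listed were all measured, with 2 lower and 3 higher past 2-fold and a median of -0.01 (0.13 without other types' RNA), while in non-dividing T cells the median was -0.79. Havcr2, the receptor TIM-3, stood at 10.1 CPM in WT and 44.9 CPM in KO, 4.43-fold higher (interval 2.56 to 7.43), with a log2 ratio of 1.16 without the members carrying other types' RNA. Tigit, which restrains T and NK cells, stood at 18.7 CPM in WT and 8.17 CPM in KO, from 4 KO members, and Cd244a, a SLAM-family receptor, at 20.4 CPM in WT and 46.95 CPM in KO; without those members their log2 ratios were -0.99 and 0.78. Of the 22 genes of cell killing listed, 19 were measured, 0 lower and 4 higher past 2-fold, beside 6.91% and 4.52% of all measured genes. The median of these killing genes was -0.16. Gzma, granzyme A, stood at 139 CPM in WT and 288 CPM in KO, 2.06-fold higher (interval 1.71 to 2.48), and Nkg7, a granule membrane protein, at 711 CPM in WT and 404 CPM in KO (log2 -0.81). A Gzma UMI was found in 11.9% of WT members (9.76% to 14.4%) and 14.5% of KO members (7.45% to 24.4%), with overlapping intervals. In B cells these shares were 5.41% and 2.49%. In KO 27.7% of the Gzma UMIs came from 1 cell. Gzmb, granzyme B, was found in 21.98% of WT and 22.4% of KO members, with overlapping intervals, and in 2.58% and 1.12% of B cells. Besides Gzma, the higher genes were the receptors Klrg1, Klrc2 and Klrk1, with UMIs in 9, 9 and 14 KO members. Without other types' RNA the list's median was -0.08, and Gzma, Klrg1, Klrc2 and Klrk1 had log2 ratios of 1.16, 1.51, 1.79 and 1.26. Among members with Cd4 alone (25 in KO) the list's median was -1.601.

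Genes of innate-like T cells had the highest median of the 21 lists over all members, but not at equal depth. Of 11 listed, 10 were measured; 6 were at least 2-fold higher and 3 lower in KO, with a median log2 ratio of 1.99 over members, 2.37 without those carrying other types' RNA and 2.11 in non-dividing T cells. Of all measured genes 4.52% were at least 2-fold higher in KO members and 6.91% lower. The innate-like list too was drawn up with results of these libraries known. Zbtb16 stood at 8.76 CPM in WT and 127 CPM in KO, 14.4-fold higher (interval 9.68 to 21.7). Klrb1c, the surface receptor NK1.1, stood at 5.84 CPM in WT and 59.2 CPM in KO, 10.1-fold higher (interval 5.87 to 17.5). Kcnq5, a potassium channel, stood at 156 CPM in WT and 633 CPM in KO, 4.06-fold higher (interval 3.55 to 4.63). These 3 genes were at least 2-fold higher also without the members carrying other types' RNA, with log2 ratios of 3.95, 3.29 and 2.25. Plac8 was among the 3 lower genes, at 529 CPM in WT and 243 CPM in KO (log2 -1.12, and -0.90 without those members), as were the 2 interleukin-18 receptor chains, which this list also holds. At 1000 UMIs per cell the median was 0.45, below that of naive and memory genes (0.74), and with the haemoglobin limit at 1% it was 0.93. It was 0.75 when genes with fewer than 50 UMIs were left out, and among members with Cd8 alone, 12 of them in KO, it was -0.57.

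Several genes of resting and memory T cells were higher in the KO members. All 12 listed were measured. At least 2-fold higher were 4 and lower 0, beside 4.52% and 6.91% of all measured genes. The list's median was 0.69, with 1.08 in non-dividing T cells and -0.30 among members with Cd8 alone (12 in KO). Tcf7, the factor TCF-1 of naive and stem-like T cells, stood at 95.6 CPM in WT and 198 CPM in KO, 2.07-fold higher (interval 1.65 to 2.58), with a log2 ratio of 0.80 without the members carrying other types' RNA. Bach2, a repressor of effector genes, stood at 79.1 CPM in WT and 229 CPM in KO, 2.89-fold higher (interval 2.32 to 3.57). Ccr7, the receptor that guides T cells to lymph nodes, stood at 4.67 CPM in WT and 38.8 CPM in KO, 8.298-fold higher (interval 4.298 to 15.8). All 3 had intervals that leave out equality. Bach2 and Ccr7, without other types' RNA, had log2 ratios of 1.34 and 3.13, and the list's median was 0.61. Of 23 homing receptors and adhesion genes listed, 19 were measured; 5 were higher and 0 lower past 2-fold, with Itgb1, the integrin beta-1 chain, at 267 CPM in WT and 725 CPM in KO (log2 1.44, and 1.64 without other types' RNA); the median was -0.05 (-0.03 without). For Ccr9, the gut homing receptor, 60.9% of the KO UMIs came from 1 cell. Of 29 lineage factors listed, 28 were measured; 1 was lower and 6 higher past 2-fold, and the median was -0.04 (-0.08 without other types' RNA). Gata3, the type 2 factor, stood at 71.1 CPM in WT and 161 CPM in KO, 2.27-fold higher (interval 1.76 to 2.9), with a UMI in 43 of 76 KO members. Bhlhe40, which promotes effector cytokines, stood at 141 CPM in WT and 38.8 CPM in KO, 3.63-fold lower (interval 2.305 to 6.06), with a log2 ratio of 0.11 among members with Cd8 alone. Without other types' RNA the log2 ratios of Gata3 and Bhlhe40 were 1.34 and -1.84.

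Most glycolysis genes were lower in KO, by less than 2-fold in all but 1. Of 20 listed, 19 were measured and 1 was at least 2-fold lower. A log2 ratio below 0 was found in 15 and above 0 in 4. The median was -0.37 (-0.39 without other types' RNA), against -0.002 over all measured genes. Summed levels were 3763 CPM in WT and 2529 CPM in KO. Aldoa, the aldolase of glycolysis, stood at 275 CPM in WT and 110.2 CPM in KO, 2.49-fold lower (interval 1.901 to 3.34), and Gapdh, a later enzyme of the path, at 1155 CPM in WT and 672 CPM in KO (log2 -0.78). None of the 74 measured of 75 listed oxidative phosphorylation subunits passed 2-fold and their median was -0.03 (-0.02 without other types' RNA). Of 20 genes listed that T-cell receptor signals induce, 19 were measured, 0 lower and 2 higher past 2-fold, with a median of 0.13 (0.17 without other types' RNA); Nr4a1, an early response factor, stood at 10.7 CPM in WT and 38.8 CPM in KO, from 4 KO members. All 21 cell death genes were measured and 3 were at least 2-fold lower, among them Bax, which opens the mitochondrial membrane, at 176 CPM in WT and 77.6 CPM in KO, 2.26-fold lower (interval 1.64 to 3.22). Their median was -0.17 (-0.20 without other types' RNA), and Aldoa, Nr4a1 and Bax then had log2 ratios of -1.21, 1.27 and -1.41. Cdkn1a, given above with the cyclins, is on this list too and is 1 of its 3 lower genes. Of the 21 cell death genes, 6 had a log2 ratio above 0, and 6.91% of all measured genes were at least 2-fold lower. Bax and Cdkn1a are both known targets of p53, and a part of p53 in their levels was not tested.

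**Figure D5:**
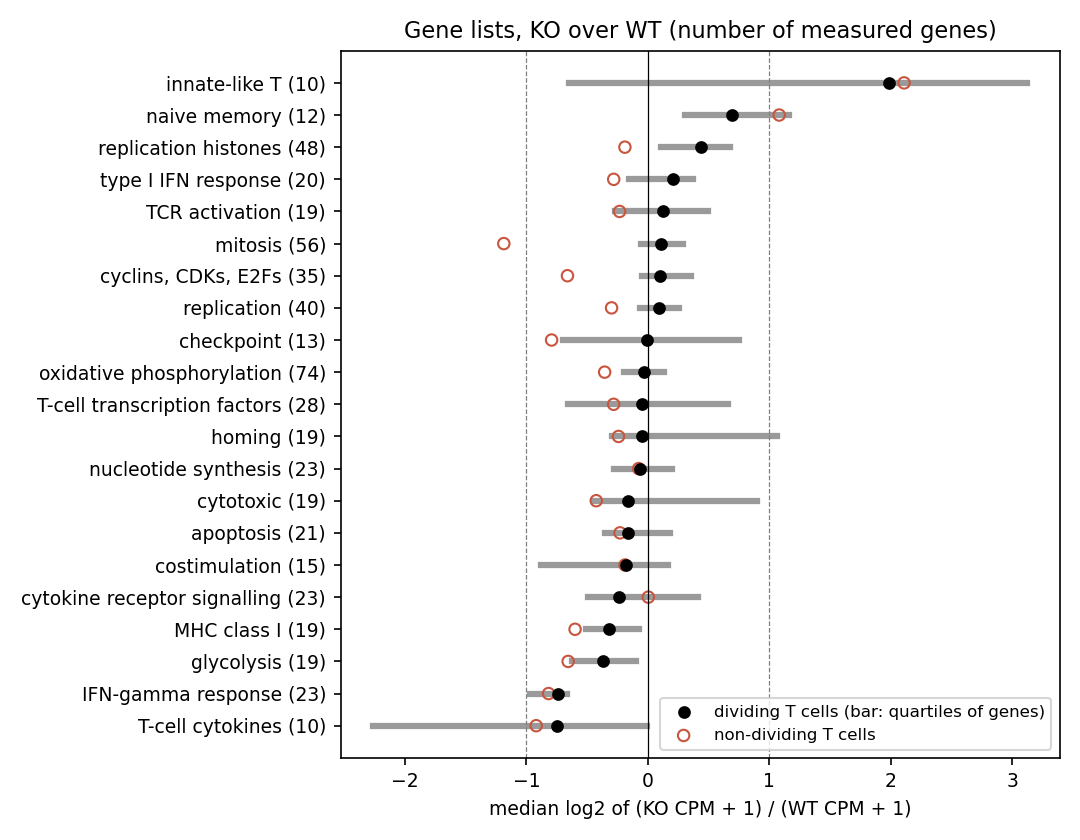
Median log2 ratio of KO over WT (horizontal axis) of each of 21 gene lists, as filled points for dividing T cells with bars over the quartiles of their genes and as open circles for non-dividing T cells; dashed lines mark 2-fold. Replication and mitosis lie at 0.09 and 0.11 in dividing cells, the interferon-gamma response at -0.74 and innate-like genes at 1.99.

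Across all genes, the 15 lowest and 15 highest ratios with enough RNA to be read were listed by a fixed rule. Among those lower in KO were Ifng, Csf1, Il18r1, Bhlhe40 and Iigp1, given above. Arnt2, a bHLH-PAS transcription factor that pairs with other factors of its class, had the lowest ratio at 86.1 CPM in WT and 6.12 CPM in KO, a KO to WT ratio of 0.0711 (interval 0.0146 to 0.209). Furin, the protease that cuts proproteins such as that of TGF-beta, stood at 416 CPM in WT and 59.2 CPM in KO, 7.03-fold lower (interval 4.88 to 10.5). Il1rl1, the interleukin-33 receptor ST2, stood at 56.9 CPM in WT and 10.2 CPM in KO, 5.57-fold lower (interval 2.36 to 17.3). These 3 genes kept log2 ratios below 0 without the members carrying other types' RNA, at -3.495, -2.82 and -2.21. In non-dividing T cells the log2 ratios of Arnt2, Furin and Il1rl1 were -4.07, -3.15 and -4.496, against -3.61, -2.79 and -2.37 in members. Their lower level in KO was thus not particular to dividing cells. Ly6a2, Ifitm6, Or13a27, Actn2, Tspan3, Cd177 and Lcn2 complete the 15, with log2 ratios from -2.02 to -3.29. Cd177 and Lcn2 are neutrophil genes, and their log2 ratios were -1.01 and -1.16 without those members. Ly6a2 and Ifitm6 went from -3.29 and -3.07 to -2.16 and -2.03, and Or13a27, Actn2 and Tspan3 from -2.95, -2.45 and -2.26 to -2.82, -2.36 and -2.09. The WT level of Ly6a2 fell from 68.7 to 15.3 CPM and that of Ifitm6 from 127 to 35.3 CPM without those members. Those of Cd177 and Lcn2 fell from 71.5 to 11.6 and from 755 to 142 CPM. Or13a27, Actn2 and Tspan3 did not fall in WT, at 80.5, 85.1 and 59.5 CPM. In non-dividing T cells the log2 ratios of Or13a27, Actn2 and Tspan3 were -4.31, -1.92 and -1.68. Neutrophil RNA was not confined to the members left out: S100a8 was found in 98.5% of all WT and 39.5% of all KO members. The estimate of free RNA, taken only from S100a8 and S100a9 in B cells, was 173 UMIs for each WT cell and 0 for each KO cell. Hbb-bs, a haemoglobin gene, was found in 100% of members in both libraries. The estimate of 0 therefore does not show that KO cells were without free RNA. In these sums, free RNA and RNA made by the members cannot be told apart.

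The 15 highest included Zbtb16 and Klrb1c. Bc1, Rtn1, Cdk14, Srgap3, Pde7b, Plcl1 and Hs3st3b1 had log2 ratios from 2.19 to 3.56 over all members and from 1.497 to 3.92 without those carrying other types' RNA. The KO level of Cdk14 then fell from 139 to 18.5 CPM and that of Rtn1 from 53.1 to 18.5 CPM. Srgap3 fell in KO from 71.4 to 29.0 CPM and Pde7b from 51.03 to 26.4 CPM. In WT these 4 genes stood at 4.69, 3.95, 9.62 and 8.14 CPM without those members. Bc1, Plcl1 and Hs3st3b1 did not fall in KO, at 100.2, 58.0 and 58.0 CPM. Pde7b, a phosphodiesterase that breaks down cyclic AMP, stood at 8.96 CPM in WT and 51.03 CPM in KO, 5.697-fold higher (interval 3.35 to 9.47). Its KO UMIs came from 6 members, with 56% from 1 of them. Hs3st3b1, which sulfates heparan sulfate, stood at 11.3 CPM in WT and 55.1 CPM in KO, 4.88-fold higher (interval 2.97 to 7.83). Their log2 ratios without other types' RNA were 1.58 and 2.07. The other 6 of the 15 lay inside 2-fold once the members with other types' RNA were left out: Dapk1, Tbc1d9, Nav1, Vcan, Slc8a1 and Wdfy4 had log2 ratios of 0.08, 0.58, -0.03, 0.22, 0.45 and 0.86 without them. In KO, 84.6% of the Vcan UMIs, 55.3% of the Dapk1 UMIs, 50% of the Bc1 UMIs and 49.6% of the Wdfy4 UMIs came from 1 cell each. Among members with Cd8 alone the log2 ratios of Cdk14 and Plcl1 were -1.55 and -4.04, and among those with Cd4 alone that of Pde7b was -0.28. Wdfy4 is known for antigen presentation by dendritic cells, and Xcr1, their defining chemokine receptor, stood at 9.54 CPM in WT and 67.4 CPM in KO in members.

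Bicd2 itself was counted in the members, although the Cre line targets hepatocytes and the position of the counted 3' tag relative to the deleted part was not given in the sources used here. Bicd2 gave 164 UMIs from 145 WT members and 1 UMI in KO, 31.9 and 2.04 CPM, a KO to WT ratio of 0.0639 (interval 0.00161 to 0.361). In non-dividing T cells Bicd2 stood at 21.8 and 17.9 CPM, and the log2 ratio in members less that in non-dividing cells was -3.16 (interval -5.502 to -0.82). Alb, the hepatocyte gene whose promoter drives Cre, gave 9 UMIs in 6 WT members and 8 UMIs in 3 KO members. In KO 50% of these UMIs came from 1 cell. The levels were 1.75 CPM in WT and 16.3 CPM in KO, a KO to WT ratio of 9.32. Its interval (3.13 to 27.2) counts each UMI as independent. In non-dividing T cells Alb stood at 3.59 and 10.6 CPM.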

How the data were processed

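RNA was measured in 1 WT and 1 KO library. The deposited values were UMI counts per gene and barcode, not normalized; they were written by Cell Ranger 8.0.1 per the file headers, whereas version 6.0.1 of Cell Ranger, with Seurat 4.3.0 and the build mm39, is what the submitters' processing notes give. The steps between reads and counts were not otherwise given in the sources used here.

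Barcodes were gated on raw UMIs as described in the report, and counts were summed over members and scaled to CPM. Genes with at least 20 summed UMIs were compared as log2 ratios with a pseudocount of 1 CPM, and a 2-fold difference was counted as past the limit. Intervals of ratios of summed UMIs are exact conditional binomial intervals at 95%, and genes at 0 were set to 3 counts for lower bounds. Those of ratios of shares and of differences between log2 ratios are log-normal. No test across samples was possible with 1 library per group. The intervals cover counting error only. Scrublet, run in scanpy 1.11.5, marked likely doublets (1892 of 16666 WT and 796 of 10812 KO barcodes, and 85 and 2 of the members), which were kept; an alternative left them out.

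The members, lists and thresholds were chosen with earlier results of these data known. Named genes were the 15 highest and 15 lowest ratios among genes with at least 30 UMIs, 50 CPM and a UMI in 5% of members in the higher library, and an interval that leaves out equality; genes of antigen receptors, haemoglobin, mitochondria, ribosomes and the sex chromosomes' markers, gene models with no name, and other cell types' markers were not eligible, and members of the lists could also be named. The scripts were tested on simulated data. 1 gene of the interferon-gamma response list is not reported here by name, though the list's counts hold it. Alternatives covered the gates, depth, doublets, filters, pseudocount, free RNA and scaling with edgeR 4.0.16 (TMM) or DESeq2 1.42.0 size factors. The level of free RNA was taken from S100a8 and S100a9 in B cells, at 173 UMIs for each WT cell and 0 for each KO cell. Nothing was therefore subtracted in KO, so the subtraction is no check there. Leaving out members with other types' RNA, a 30 CPM minimum, haemoglobin limits of 2% and 5% and depth ranges were added after seeing the data. The scalings moved the median of all genes by less than 0.1 on the log2 scale.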

Additional observations from a re-analysis of the deposited data

Results flagged for a closer look

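For 4 genes the KO library was at least 2-fold above WT in dividing T cells and at least 2-fold below it in non-dividing T cells. With 1 library per genotype the difference between the 2 kinds of cell was not tested over samples; it is given as the log2 ratio in members less that in non-dividing cells, with an interval for counting error only. Gzma, granzyme A, had a log2 ratio of 1.04 in members, with a UMI in 95 WT and 11 KO members, and of -1.83 in non-dividing T cells, a difference of 2.87 (interval 2.53 to 3.203). By cell, Gzma was found in 11.9% of WT and 14.5% of KO members, with overlapping intervals, and in 7.62% and 3.62% of non-dividing T cells. In KO members 27.7% of its UMIs came from 1 cell. Klrg1, an inhibitory receptor of late effector cells, had 1.33 in members (57 WT and 9 KO members) and -1.19 in non-dividing cells, a difference of 2.52 (interval 1.74 to 3.304). S1pr5, an exit receptor of NK cells and effector T cells, had 1.38 in members, from 5 KO UMIs, and -1.23 in non-dividing cells, a difference of 2.604 (interval 1.02 to 4.19). Itgae, the integrin CD103, had 1.69 in members and -1.25 in non-dividing cells, a difference of 2.94 (interval 2.17 to 3.72), and without the members carrying other cell types' RNA it stood at -2.23. In KO the 4 genes were found in 11, 9, 3 and 4 members, and dendritic cells can also express Itgae.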

How the results depend on the processing

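No paired analysis was possible because each genotype had 1 library. The log2 ratio of the dividing share was -0.0445 with a haemoglobin limit of 1% and -2.39 with 2%, the second chosen after seeing the data. The innate-like median was 0.75 with a minimum of 50 UMIs, 0.75 for genes at 30 CPM or more, 0.93 with the 1% limit and 0.45 at 1000 UMIs per cell. Among members with Cd8 alone (12 in KO) the medians were -0.57 for innate-like, -0.30 for naive and memory and -0.55 for histone genes, and log2 ratios of single genes turned over: Ifng 0.93, Bhlhe40 0.11, Iigp1 0.53, Dapk1 -2.28, Tbc1d9 -1.55, Cdk14 -1.55, Nav1 -3.41, Vcan -2.28, Plcl1 -4.04 and Slc8a1 -3.66. Among members with Cd4 alone (25 in KO) the cytotoxic median was -1.601 and Pde7b stood at -0.28; without the members carrying other types' RNA Nav1 stood at -0.031. Genes at least 2-fold lower numbered 1538 with no minimum count, 459 with 50, 160 with a pseudocount of 10 CPM, 1244 among Cd4 members and 114 at 30 CPM or more, against 736. Genes at least 2-fold higher numbered 1501, 241 and 160 under the first 3, 285 among Cd8 members and 118 at 30 CPM or more, against 481. Medians near 0 changed sign under some settings: cytotoxic 0.29 and checkpoint 0.32 with 3 division UMIs, homing 0.25 with no minimum count, costimulation 0.23 among Cd8 members and T-cell receptor activation -0.60 among Cd4 members. Shifts among Cd4 or Cd8 members rest on fewer cells, and those under stricter minimums on fewer genes; the cause of the others was not tested. With 76 KO members, a gene at 6.12 CPM in KO rests on 3 UMIs.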
